A study of Mus musculus with 10 samples.

Results

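The T567A ezrin line and the T567D ezrin line of the mouse osteosarcoma cell line K7M2 were compared by poly-A RNA sequencing, with 2 libraries of each, and changes are given as T567A minus T567D. Every gene name that passed a minimum on counts entered the comparison, 12595 of 41743. K7M2 is an established bone tumour line. Endogenous ezrin had been disrupted in it by CRISPR/Cas9, and the edited cells were then stably transfected with T567A ezrin cDNA, T567D ezrin cDNA, wild-type ezrin cDNA or an empty vector. T567A and T567D cells therefore shared the disruption and the transfection, and differed in the residue encoded at the threonine named in these constructs and in being separate stable lines. The labels give 1 line per construct, name no promoter of the vector, do not give the species of the cDNA, and do not say whether a line is a clone. Whether the 2 libraries of a line stem from separate cultures is not stated either, and p-values cover only the variation between those libraries, possibly technical. The series holds 10 libraries of 5 lines, the other 3 lines being parental, empty-vector and wild-type cells, none of them treated.

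Ezrin belongs to the ERM family with moesin and radixin. The N-terminal domain of these proteins binds membrane lipids and the tails of membrane receptors, and the C-terminal tail binds actin filaments. In the closed form the tail lies on the N-terminal domain and hides both surfaces, and phosphorylation of a conserved threonine in the tail keeps the protein open. Alanine at this position cannot be phosphorylated, and aspartate mimics the phosphorylated residue. Ezrin has been studied in osteosarcoma for its part in metastasis.

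The threonine codons of the 3 family members are shown because the constructs are named for a change there, T567A or T567D, numbered from the first methionine of mouse ezrin. Each stretch is 63 bases of coding sequence of GRCm38 annotation, 5′ to 3′ on the coding strand, with the threonine codon in capitals.
Ezr: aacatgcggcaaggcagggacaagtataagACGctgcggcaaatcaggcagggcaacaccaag
Msn: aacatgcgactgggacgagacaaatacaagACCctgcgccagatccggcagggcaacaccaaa
Rdx: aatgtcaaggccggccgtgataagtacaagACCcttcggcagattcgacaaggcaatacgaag
The Ezr codon, ACG, lies on the minus strand of chromosome 17 at 6739363 to 6739365, in exon 13 of 13. The Msn codon, ACC, encodes residue 558 on the plus strand of chromosome X at 96166572 to 96166574, in exon 13 of 13. The Rdx codon, ACC, encodes residue 564 on the plus strand of chromosome 9 at 52086417 to 52086419, in exon 14 of 14. Over the encoded proteins of 586, 577 and 583 residues, moesin was identical to ezrin at 73.8% of aligned positions and radixin at 76.3%. These are reference sequences, since counts per gene do not show the edited locus or the residue carried by the transgene.

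Total counts were 14679424 and 18230763 for T567A, and for T567D 17079467 and 16790455. Levels are given as CPM, which are counts scaled to a common library size with TMM factors. Pearson correlations of log2 CPM across genes were 0.993 between the T567A libraries, 0.994 between the T567D libraries and 0.975 to 0.980 between libraries of the 2 lines. Of 9 osteoblast lineage markers, 6 reached 1 CPM in at least 1 of the 4 libraries. Their summed level was 5209 and 5185 CPM in T567A and 5111 and 5516 in T567D. Summed endothelial markers ranged from 2.14 to 3.10 CPM, lymphocyte markers from 0.81 to 1.45 and epithelial markers from 0.58 to 0.95. Adipocyte and muscle markers summed to 2.21 and 1.34 CPM in T567A and 8.43 and 7.07 in T567D, where Fabp4 alone held 7.74 and 6.19, with 4 of 10 markers (Adipoq, Plin1, Myod1 and Myog) without counts. Macrophage markers summed to 1562 and 1686 CPM in T567A and 1345 and 1357 in T567D. Csf1r, a receptor for colony-stimulating factor, made up all but 4.56 to 7.16 CPM of that sum and was higher in T567A by 0.27 ± 0.056 (adjusted p = 0.0006), and Adgre1 and Fcgr1 had no counts. Lyz2, within that remainder, was lower in T567A (-1.93, adjusted p = 0.0125 in edgeR's quasi-likelihood test). Its difference was -1.418 without T567A replicate 2 and -1.285 without T567D replicate 1. With a replicate block it did not pass (-1.308, adjusted p = 0.0977). The part of these markers in the results below was not tested.

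Differences between the 2 lines were frequent and mostly small. A gene was called at a Benjamini-Hochberg adjusted p under 0.05 in edgeR's quasi-likelihood test, and 5558 genes were called, 44.1% of those tested. Of them 2837 were higher in T567A, 22.5% of those tested, and 2721 were lower, 21.6%. These shares are the background for every gene group compared between the 2 lines below. Of 221 genes chosen by a rule from the lists and the largest changes, the T567A and T567D libraries did not overlap in 219. This count follows largely from the rule, under which 217 were called genes and the largest changes were required not to overlap. The share without overlap among all tested genes was not counted. Statements below that libraries did not overlap therefore only describe the levels. Values of both groups are given for most genes named. The change was over 2-fold in 779 called genes, 362 higher and 417 lower, and the median absolute log2 fold change of all tested genes was 0.25. By the same test 4983 genes, 39.6%, were called between T567A and wild-type ezrin cells, 2574 higher and 2409 lower in T567A. Between T567D and wild-type ezrin cells 169, 1.34%, were called, 103 higher and 66 lower in T567D. These counts are the background for calls against wild type below, so a list with few or no calls in T567D lies near it. Both comparisons with wild type share the 2 wild-type libraries, so they are used only side by side.

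**Figure D1:**
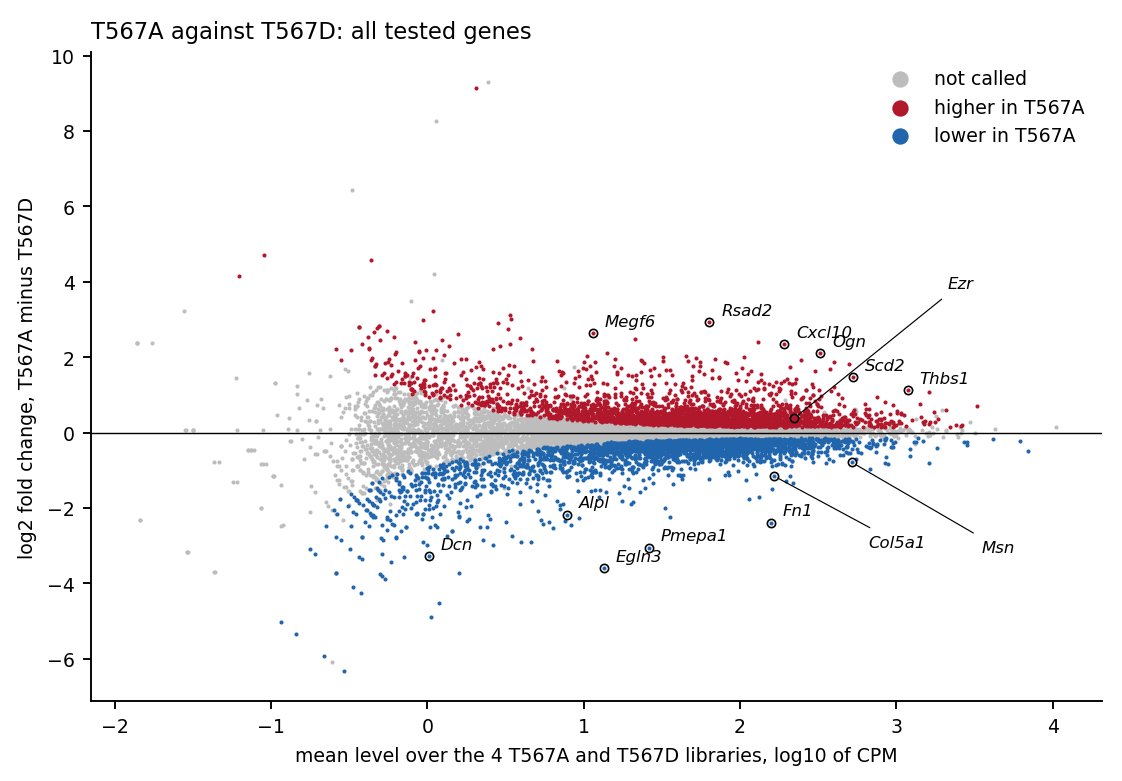
The log2 fold change of T567A minus T567D (y axis) is plotted for each tested gene against the log10 of its mean CPM in the 4 libraries (x axis), with called genes in red (2837 higher) or blue (2721 lower) and other genes in grey. Genes without counts in the 4 libraries are not drawn, and Rsad2 at 2.93 and Egln3 at -3.60 are the extremes among the circled genes.

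The difference between the lines followed the base composition of the genes. When genes were ordered by the GC content of their longest transcript and divided into 5 equal groups, the median log2 fold change was 0.22, 0.09, 0.00, -0.08 and -0.24 from the lowest to the highest group. In the group of lowest GC content 41.9% of genes were called higher and 5.47% lower, and in that of highest GC content 7.81% and 43.5%. Libraries of the same line also differed along GC content, with medians from -0.16 to 0.12 between T567A replicates 3 and 2 and from -0.07 to 0.08 between T567D replicates 3 and 1. The part of GC content in single results was not tested, but the fit was repeated with a correction for GC content of each library, an alternative added after seeing the data. With it 5232 genes were called, 2616 in each direction, of which 2057 were called higher and 1983 lower in both fits, and 9 changed direction. Group counts and gene values are given below with this correction where it moved them by over 1.5 times or ended a call.

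**Figure D2:**
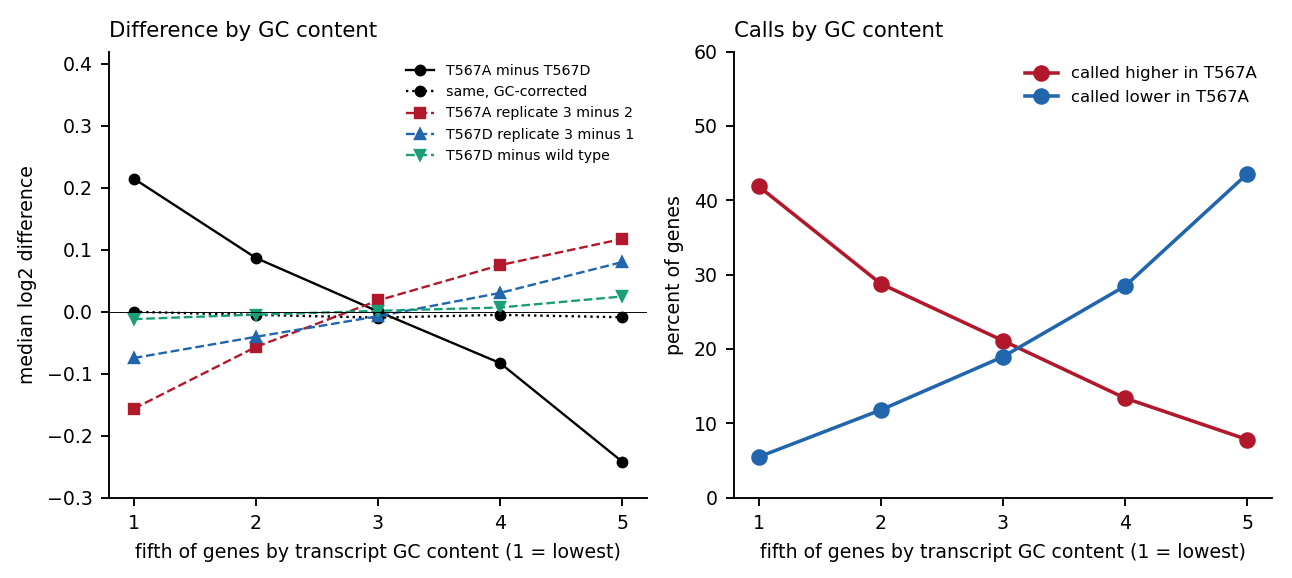
The left panel shows the median log2 difference (y axis) in 5 equal groups of genes by transcript GC content (x axis), between the lines and between libraries of a line, and the right panel shows the percent of genes called in each group. The median between the lines runs from 0.22 to -0.24 and lies within 0.01 of 0 after the GC correction.

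Ezr mRNA, counted from the constructs and the edited locus together, was somewhat higher in T567A, and moesin mRNA was lower by a larger margin. Ezr (chromosome 17, 6738041 to 6782784) was at 248 and 253 CPM in T567A and 204 and 181 CPM in T567D. Every T567A library was above every T567D library, and the difference passed the test (log2 fold change 0.38 ± 0.062, adjusted p = 5.0e-05). The same gene was at 230.4 and 233 CPM in wild-type ezrin cells. Against these, T567D was lower (-0.27 ± 0.062, adjusted p = 0.032 in the same test) and T567A was not called (0.11 ± 0.062, adjusted p = 0.17). Parental cells held 164 and 166 CPM of Ezr. Empty-vector cells, which carry no ezrin cDNA, held 72.4 and 72.9. How much of the Ezr level in the mutant lines came from the edited locus was not measured. Msn (chromosome X, 96096042 to 96168552) was at 385 and 375 CPM in T567A and 642 and 674 CPM in T567D. Moesin mRNA was thus lower in T567A without overlap (log2 fold change -0.79 ± 0.057, adjusted p = 4.1e-10), and stood below wild type in T567A (-0.47 ± 0.057, adjusted p = 1.2e-06) and above it in T567D (0.32 ± 0.056, adjusted p = 0.0036). Rdx (chromosome 9, 52047173 to 52088735) was at 221 and 226 CPM in T567A and 247 and 227 CPM in T567D, a difference of -0.09 ± 0.063 that did not pass the test (adjusted p = 0.27) but was called with the GC correction (-0.22, adjusted p = 0.0022). Nf2, which encodes merlin, a tumour suppressor related to the ERM proteins, was at 119.6 and 127 CPM in T567A and 152 and 154 CPM in T567D (log2 fold change -0.31 ± 0.062, adjusted p = 0.00039). Per transcript length, in the deposited RPKM, the mean level of 2 libraries for Ezr was 70.2 in T567A and 55.3 in T567D, Msn 55.4 and 98.2, and Rdx 43.5 and 47.3. In RPKM the order of Ezr and Msn was therefore opposite in the 2 lines. RPKM uses the same length for a gene in every library, and the length of the transgene transcript is not given. Whether Ezr or Msn mRNA was the more abundant in a line therefore cannot be read from these values.

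Among 16 tested genes of ERM partners and kinases, 5 were higher and 6 lower in T567A. Leaving out T567D replicate 3 left 1 higher and 4 lower, and leaving out T567A replicate 2 left 2 higher. Podoplanin, a membrane glycoprotein that binds ezrin and moesin, showed the largest difference, with Pdpn (chromosome 4, 143267431 to 143299564) at 26.6 and 25.4 CPM in T567A and 54.8 and 58.6 CPM in T567D. The T567A libraries lay below both the T567D libraries and the wild-type libraries, which held 58.3 and 58.7 CPM (log2 fold change -1.12 ± 0.081, adjusted p = 4.1e-10 between the mutants). Pip5k1c, a kinase that makes the lipid PIP2 bound by ERM proteins, was at 118 and 129.5 CPM in T567A and 193 and 219.6 CPM in T567D (log2 fold change -0.74 ± 0.069, adjusted p = 3.1e-08, or -0.47 with the GC correction). Slc9a3r1, which encodes the scaffold EBP50 and binds the ezrin N-terminal domain, was at 44.8 and 55.2 CPM in T567A and 36.9 and 39.2 CPM in T567D. Its difference of 0.40 ± 0.091 (adjusted p = 0.0014) was 0.64 with the GC correction and 0.23 without T567A replicate 3.

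**Figure D3:**
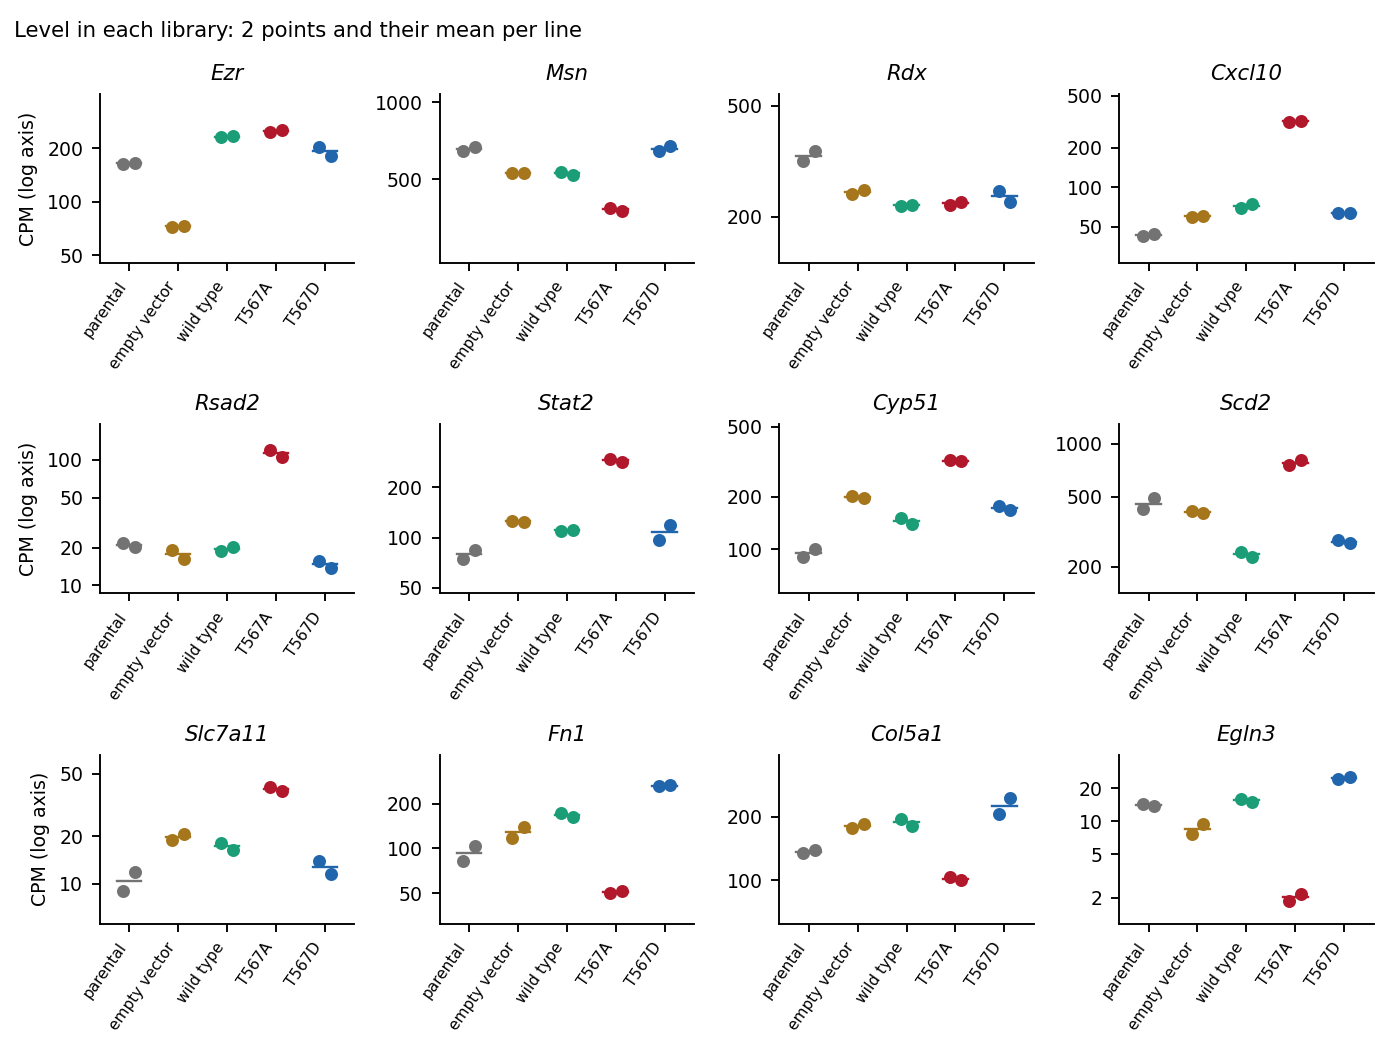
Each panel shows the CPM of a gene (y axis, log scale) in the 2 libraries of each of the 5 lines (x axis), with a line at their mean. Cxcl10, Rsad2, Stat2, Cyp51, Scd2 and Slc7a11 stand highest in T567A and Fn1, Col5a1 and Egln3 lowest in T567A, and Msn is lowest in T567A and about level with the parental line in T567D.

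Interferon-stimulated genes were higher in T567A with few exceptions. Interferons act through receptors that activate JAK kinases and STAT transcription factors, which switch on genes for antiviral proteins, GTPases and antigen presentation. Of 40 tested interferon-stimulated effectors, 39 were higher in T567A and 1 was lower, with a median log2 fold change of 1.15 against 0.00 for all tested genes. Against wild type, 38 were higher in T567A and 1 lower, and in T567D 1 was higher and 1 lower. With the GC correction the counts between the lines were again 39 and 1. These lists were drawn up with earlier results on these libraries known, so their direction is no independent evidence.

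Rsad2, which encodes viperin, an antiviral radical-SAM enzyme, lies at chromosome 12, 26442746 to 26456452. It was at 119.7 and 106 CPM in T567A, 15.7 and 13.9 in T567D and 18.7 and 20.3 in wild type. The T567A libraries stood apart from all others (log2 fold change 2.93 ± 0.096, adjusted p = 1.8e-15). Its neighbour Cmpk2 (chromosome 12, 26469204 to 26479837), a nucleotide kinase gene, was at 76.1 and 69.2 CPM in T567A and 16.9 and 18.6 CPM in T567D (log2 fold change 2.03 ± 0.093, adjusted p = 3.8e-13). The dynamin-like antiviral GTPase gene Mx2 (chromosome 16, 97535308 to 97560900) was at 25.5 and 20.4 CPM in T567A and 5.26 and 5.26 CPM in T567D (log2 fold change 2.12 ± 0.15, adjusted p = 4.1e-10). The annotation labels Mx2 a polymorphic pseudogene, so a working protein cannot be read from these counts. Mx1 was scarce, at 6.7 and 4.79 CPM in T567A and 0.751 and 0.935 CPM in T567D, and also higher (log2 fold change 2.75 ± 0.28, adjusted p = 1.0e-07). Ifit3b (chromosome 19, 34607970 to 34613401), a member of a family that binds foreign RNA, was at 376 and 397 CPM in T567A and 101 and 103 CPM in T567D (log2 fold change 1.92 ± 0.063, adjusted p = 1.8e-15). The libraries of the 2 lines did not overlap for any of these genes. The member called in the other direction, named after its value was seen, was Ifi27, at 81.1 and 91.1 CPM in T567A and 115 and 115 CPM in T567D (log2 fold change -0.42 ± 0.071, adjusted p = 7.0e-05). Ifit3 and Ifit3b, the Oas1 genes, and the Gbp, Tgtp, Trim30 and Slfn clusters are families of near-identical copies, and reads may have been split between their members.

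Promoters of 4 genes that were higher in T567A are shown because the element bound by interferon-activated factors, or the sterol element discussed later, can be read in them. Each is the 250 bases before the annotated gene start, 5′ to 3′ on the gene's strand, from RefSeq on GRCm38.p6, with matches in capitals. The motif searched for interferon was GAAANNGAA on either strand, and for sterols TCACNCCAC.
Rsad2, chr12:26456453-26456702, minus strand: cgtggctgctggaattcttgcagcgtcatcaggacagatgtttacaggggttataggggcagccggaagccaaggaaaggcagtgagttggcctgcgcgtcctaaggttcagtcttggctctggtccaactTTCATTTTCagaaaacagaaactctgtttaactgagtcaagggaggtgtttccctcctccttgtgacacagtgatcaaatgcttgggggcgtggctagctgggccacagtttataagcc
Cxcl10, chr5:92348890-92349139, minus strand: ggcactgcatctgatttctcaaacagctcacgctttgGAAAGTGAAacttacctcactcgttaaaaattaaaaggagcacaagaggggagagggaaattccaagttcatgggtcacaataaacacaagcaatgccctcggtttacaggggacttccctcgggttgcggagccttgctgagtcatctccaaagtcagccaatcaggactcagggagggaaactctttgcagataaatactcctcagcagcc
Ifit1, chr19:34640639-34640888, plus strand: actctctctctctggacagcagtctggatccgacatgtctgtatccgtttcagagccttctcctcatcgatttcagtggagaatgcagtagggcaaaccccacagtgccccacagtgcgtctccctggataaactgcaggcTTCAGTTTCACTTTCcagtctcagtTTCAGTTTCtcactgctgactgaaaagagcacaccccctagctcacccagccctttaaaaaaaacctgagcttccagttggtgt
Hmgcs1, chr13:119690101-119690350, plus strand: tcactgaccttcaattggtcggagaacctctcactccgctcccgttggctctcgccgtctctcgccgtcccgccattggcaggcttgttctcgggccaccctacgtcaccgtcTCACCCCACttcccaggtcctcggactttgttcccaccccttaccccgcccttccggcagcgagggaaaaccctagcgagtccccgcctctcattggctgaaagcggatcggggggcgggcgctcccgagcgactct
Rsad2 held 1 match beginning at -119 from the gene start, Cxcl10 held 1 at -213, and Ifit1 held 3, the outer ones at -109 and -84 and some of them overlapping. The interferon motif was in 12 of the 30 interferon-stimulated effectors with a promoter in the table, in 9 of 9 interferon-inducible GTPases and in 4 of 20 class I presentation genes. It was also in 5 of 18 matrix glycoprotein genes (27.8%), a list more often lower than higher in T567A, and in 3 of 12 chemokines and cytokines. It was in 737 of the promoters of the 9735 tested genes with an entry (7.57%) and in 7.13% of all 32851 promoters of the table. The motif TTCNNNGAA, which resembles the gamma-activated site, was in 6 of the 9 GTPase promoters (66.7%) and in 7.27% of those of tested genes. A match describes the letters and is not a measured site.

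Interferon-inducible GTPases, which attack the membranes of intracellular pathogens, were higher in 15 of 16 tested genes and lower in none, with a median of 1.68 and values from 1.12 to 2.41. The T567D line had no call against wild type in this list, where 1.34% of all tested genes were called. The T567A line had 15, each higher. Iigp1, of the immunity-related GTPase family, was at 251 and 190.1 CPM in T567A and 42.4 and 40.1 CPM in T567D (log2 fold change 2.41 ± 0.1, adjusted p = 8.1e-11). Tgtp1 (chromosome 11, 48985327 to 48994172) was at 70.0 and 76.1 CPM in T567A and 21.4 and 18.2 CPM in T567D (log2 fold change 1.89 ± 0.088, adjusted p = 5.3e-13). Gbp4 (chromosome 5, 105115767 to 105139586), a guanylate-binding protein gene, was at 83.6 and 71.7 CPM in T567A and 22.5 and 23.1 CPM in T567D (log2 fold change 1.77 ± 0.087, adjusted p = 1.1e-12). Every T567A library exceeded every T567D library in these genes.

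Sensors of nucleic acids were higher in 13 of 16 tested genes and lower in 2, with a median of 0.60. Leaving out T567A replicate 2 or T567D replicate 3 left 1 lower. Tlr3 (chromosome 8, 45395665 to 45411080), the endosomal receptor for double-stranded RNA, was at 132 and 120.2 CPM in T567A and 36.5 and 32.3 CPM in T567D (log2 fold change 1.87 ± 0.087, adjusted p = 5.6e-13). Ifih1 (chromosome 2, 62595798 to 62646255), which encodes the cytosolic RNA sensor MDA5, was at 215 and 193 CPM in T567A and 72.1 and 66.4 CPM in T567D (log2 fold change 1.56 ± 0.076, adjusted p = 1.1e-12). Dhx58, encoding the related helicase LGP2, was at 85.2 and 89.9 CPM in T567A and 28 and 31.9 CPM in T567D (log2 fold change 1.55 ± 0.079, adjusted p = 1.7e-12). Zbp1, a sensor of Z-form nucleic acids, was at 83 and 88.7 CPM in T567A and 22.5 and 28.1 CPM in T567D (log2 fold change 1.77 ± 0.096, adjusted p = 6.0e-12). The 2 lower members, named after their values were seen, were the adaptor gene Mavs, at -0.46 ± 0.079, and the transcription factor gene Irf3, at -0.26 ± 0.098, a call lost with the GC correction (-0.08, adjusted p = 0.51).

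Interferon itself, its receptors and the JAK-STAT genes were higher in 12 of 18 tested members and lower in 2. Ifnb1, the interferon-beta gene (chromosome 4, 88522025 to 88522774), had 16 and 18 reads in T567A and 3 and 3 reads in T567D. The ratio of reads per total was 5.83, with a 95% exact counting interval of 2.42 to 17.0, and edgeR's adjusted p was 0.00064. Stat2 (chromosome 10, 128270559 to 128292849) was at 297 and 285 CPM in T567A and 96.9 and 119 CPM in T567D (log2 fold change 1.43 ± 0.08, adjusted p = 2.0e-11). Irf1, an interferon-induced transcription factor, was at 159 and 158 CPM in T567A and 95.8 and 103 CPM in T567D (log2 fold change 0.67 ± 0.064, adjusted p = 3.4e-08). Socs1, an inhibitor of JAK signalling, was lower, at 7.73 and 9.52 CPM in T567A and 11.6 and 15.5 CPM in T567D (log2 fold change -0.64 ± 0.16, adjusted p = 0.003), and this call was lost without T567D replicate 3 (-0.42, adjusted p = 0.075) and was -0.39 with the GC correction. The other lower member was Jak1, at -0.20 ± 0.065. Without T567A replicate 3, T567D replicate 1 or T567D replicate 3, 1 member was lower.

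Class I antigen presentation, the display of peptides from the proteasome on the cell surface, was higher in 23 of 24 tested genes and lower in none, with a median of 0.66. Against wild type 22 members were higher in T567A and none was called in T567D, where 1.34% of all tested genes were called. Nlrc5 (chromosome 8, 94434356 to 94527272), the transactivator of class I genes, was at 55.9 and 52.9 CPM in T567A and 18.4 and 26.5 CPM in T567D (log2 fold change 1.28 ± 0.12, adjusted p = 3.4e-07). Tap1 (chromosome 17, 34187553 to 34197225), a peptide transporter subunit, was at 208 and 226 CPM in T567A and 86.1 and 92.7 CPM in T567D (log2 fold change 1.28 ± 0.065, adjusted p = 1.9e-12). The immunoproteasome subunit gene Psmb8 was at 125 and 141 CPM in T567A and 64.7 and 72.2 CPM in T567D (log2 fold change 0.96 ± 0.075, adjusted p = 1.6e-09), and its activator Psme1 was at 156 and 158 CPM in T567A and 79.5 and 88.8 CPM in T567D (log2 fold change 0.90 ± 0.066, adjusted p = 5.8e-10). H2-T22, a nonclassical class I gene, was at 243 and 250.1 CPM in T567A and 107 and 109 CPM in T567D (log2 fold change 1.19 ± 0.06, adjusted p = 1.4e-12). Parental cells held a mean of 186 CPM of Psmb8, above T567A. Their means of 136 CPM for Tap1, 41.5 for Nlrc5, 117 for Psme1 and 170 for H2-T22 lay between wild type and T567A. The classical genes differed less, with H2-K1 at 0.43 ± 0.065 and H2-D1 at 0.34 ± 0.062, and the light chain gene B2m lay at 0.55 ± 0.069, or 0.35 with the GC correction.

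Chemokines and cytokines were higher in 13 of 19 tested genes and lower in 3, with a median of 1.10. Cxcl10 (chromosome 5, 92346638 to 92348889), which attracts activated T cells, was at 318 and 323 CPM in T567A, 63.7 and 63.2 in T567D and 69.2 and 74.8 in wild type (log2 fold change 2.34 ± 0.065, adjusted p = 2.6e-16). Its neighbours on chromosome 5 were higher as well, with Cxcl11 at 23.7 and 26.7 CPM in T567A and 6.87 and 6.19 CPM in T567D (log2 fold change 1.95 ± 0.12, adjusted p = 3.7e-11) and Cxcl9 at 5.18 and 5.12 CPM in T567A and 1.68 and 1.29 CPM in T567D (log2 fold change 1.79 ± 0.27, adjusted p = 1.6e-05). In the annotation Cxcl11, like Mx2, is labelled a polymorphic pseudogene. Ccl5 (chromosome 11, 83525778 to 83530518) was at 155 and 186 CPM in T567A and 42.9 and 42.2 CPM in T567D (log2 fold change 2.01 ± 0.096, adjusted p = 1.9e-11). Ccl7, which attracts monocytes, was at 108 and 92.6 CPM in T567A and 32.2 and 31.7 CPM in T567D (log2 fold change 1.65 ± 0.08, adjusted p = 8.5e-13). The 3 lower members, named after their values were seen, were Cxcl12 at -0.85 ± 0.068, Il34 at -0.54 ± 0.11 (-0.35 with the GC correction) and Lif at -0.46 ± 0.14. NF-kappaB components and targets were mixed, with 5 of 14 higher and 4 lower, or 6 and 1 with the GC correction. Without T567A replicate 2 the counts were 3 and 2, without T567D replicate 1 there were 3 higher, and without T567D replicate 3 there were 2 lower. Vcam1 (chromosome 3, 116109949 to 116129688), an adhesion receptor for leukocytes, was the most changed of them, at 601 and 569 CPM in T567A and 298 and 324 CPM in T567D (log2 fold change 0.91 ± 0.06, adjusted p = 1.1e-10).

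**Figure D4:**
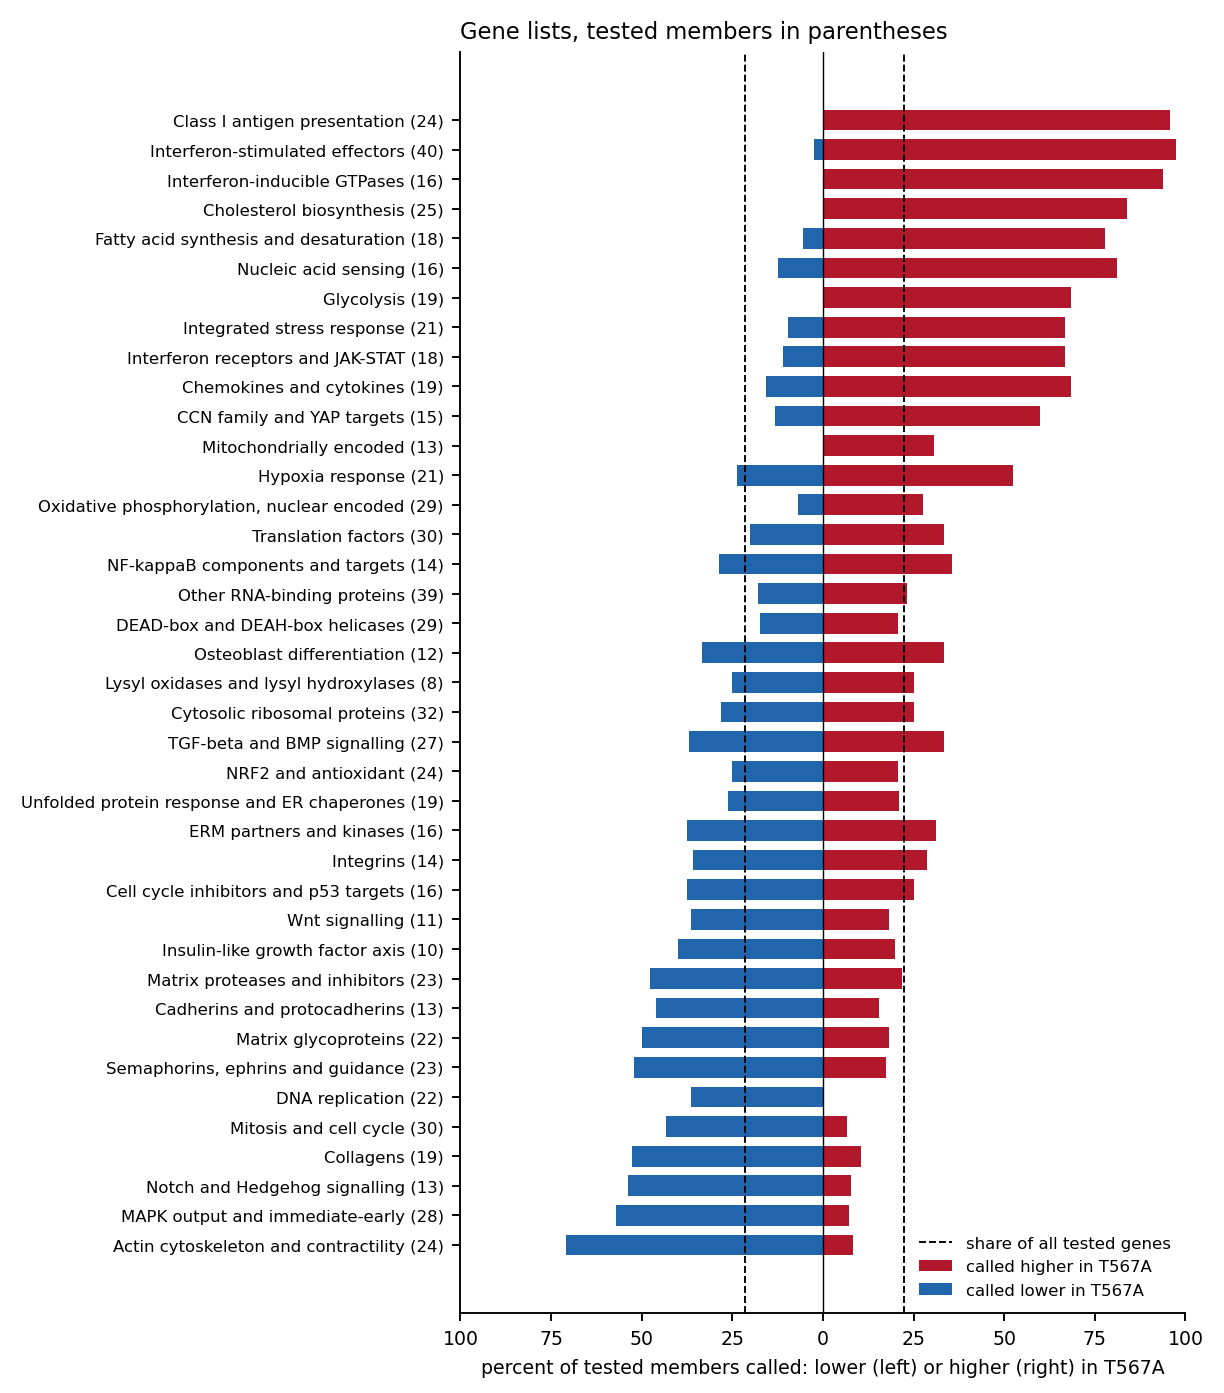
For each gene list with at least 8 tested members, bars give the percent of members called higher (right, red) or lower (left, blue) in T567A, and dashed lines mark the shares among all tested genes, 22.5% and 21.6%. Interferon, class I, cholesterol and fatty acid lists lie far to the right, and actin, MAPK, collagen and Notch lists to the left.

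Genes of cholesterol synthesis were higher in T567A from the start of the pathway to its end. The enzymes convert acetyl-CoA to mevalonate, isoprenoids, squalene and sterols, and are controlled together by SREBP2. Of 25 tested genes 21 were higher and none lower, with a median of 0.66 (22 higher and none lower with the GC correction). Against wild type 23 were higher in T567A and 1 in T567D. Hmgcs1 (chromosome 13, 119690379 to 119708260), HMG-CoA synthase, was at 158 and 150.3 CPM in T567A and 85.9 and 83.9 CPM in T567D (log2 fold change 0.86 ± 0.067, adjusted p = 1.5e-09). Idi1 (chromosome 13, 8885501 to 8892451), the isoprenoid isomerase, was at 138 and 125 CPM in T567A and 69.3 and 59 CPM in T567D (log2 fold change 1.03 ± 0.076, adjusted p = 6.0e-10). Sqle, squalene epoxidase, added after its value was seen, was at 202 and 205 CPM in T567A and 127 and 120.3 CPM in T567D (log2 fold change 0.72 ± 0.06, adjusted p = 4.7e-09). Cyp51 (chromosome 5, 4081145 to 4104746), lanosterol demethylase, was at 323 and 319 CPM in T567A and 177 and 168 CPM in T567D (log2 fold change 0.90 ± 0.065, adjusted p = 4.5e-10), and Msmo1, a methylsterol oxidase that acts later in the pathway, at 209 and 205 CPM in T567A and 101 and 105 CPM in T567D (log2 fold change 1.01 ± 0.062, adjusted p = 3.7e-11). Dhcr7, the reductase that makes cholesterol itself, was at 23 and 23.7 CPM in T567A and 12.1 and 13.1 CPM in T567D (log2 fold change 0.89 ± 0.097, adjusted p = 2.5e-07). The T567A libraries lay above the T567D libraries in each of these genes. Wild type was not the level of all other lines. Mean levels in parental and empty-vector cells were 114 and 141 CPM for Hmgcs1 and 22.1 and 17.7 for Dhcr7, against 78.9 and 11.6 in wild type. They were 61.3 and 89.2 CPM for Idi1, 94.8 and 199 for Cyp51, and 109 and 123 for Msmo1. The 4 members without a call were Mvk, Tm7sf2, Ebp and Srebf2. The sterol motif marked in the Hmgcs1 promoter above, beginning at -137, was in 1 of 17 members with an entry (5.88%) and in 1.10% of promoters of tested genes.

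Fatty acid synthesis and desaturation genes were higher in 14 of 18 and lower in 1, with a median of 0.50. Scd2 (chromosome 19, 44293674 to 44306864), a stearoyl-CoA desaturase, was at 751 and 802 CPM in T567A and 284 and 272 CPM in T567D (log2 fold change 1.48 ± 0.069, adjusted p = 4.9e-13). Scd1 (chromosome 19, 44394455 to 44407879), its paralogue on the same chromosome, was at 532 and 571 CPM in T567A and 262 and 218 CPM in T567D (log2 fold change 1.20 ± 0.079, adjusted p = 4.3e-10). Fads2, a desaturase of polyunsaturated fatty acids, was at 241 and 268 CPM in T567A and 159 and 165 CPM in T567D (log2 fold change 0.66 ± 0.063, adjusted p = 4.3e-08). Acss2, which makes acetyl-CoA from acetate, was at 9.67 and 12.7 CPM in T567A and 6.87 and 4.62 CPM in T567D (log2 fold change 0.97 ± 0.19, adjusted p = 0.00048). Parental cells held a mean of 252 CPM of Fads2, near T567A, while wild type held 138. For Scd2, Scd1 and Acss2 the parental means of 457, 232 and 4.75 CPM were below T567A. Fasn, the fatty acid synthase gene, was the lower member, named after its value was seen, at -0.17 ± 0.066 (adjusted p = 0.037). That call was lost without T567A replicate 2, T567D replicate 1 or T567D replicate 3 and with the GC correction (0.05, adjusted p = 0.62), and without T567A replicate 3 there were 2 lower members.

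Glycolysis genes were higher in 13 of 19 and lower in none, with a median of 0.37, and in 17 of 19 with the GC correction. Eno2 (chromosome 6, 124760053 to 124769673), an enolase, was at 12.2 and 12.5 CPM in T567A and 4.45 and 5.55 CPM in T567D (log2 fold change 1.30 ± 0.14, adjusted p = 3.0e-07). Pdk1, a kinase that turns off pyruvate dehydrogenase, was at 27 and 28.8 CPM in T567A and 13.9 and 13.1 CPM in T567D (log2 fold change 1.05 ± 0.1, adjusted p = 4.4e-08). Ldha, lactate dehydrogenase, was at 1110.1 and 1262 CPM in T567A and 839.8 and 818 CPM in T567D (log2 fold change 0.52 ± 0.063, adjusted p = 1.2e-06). Pfkl, liver-type phosphofructokinase, was at 258 and 284 CPM in T567A and 174 and 180.5 CPM in T567D (log2 fold change 0.62 ± 0.064, adjusted p = 1.4e-07).

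The wider hypoxia list had 11 of 21 members higher and 5 lower (11 and 3 with the GC correction). Hif1a (chromosome 12, 73901375 to 73947530), the oxygen-regulated transcription factor, was at 345 and 321 CPM in T567A and 182 and 165 CPM in T567D (log2 fold change 0.94 ± 0.067, adjusted p = 4.1e-10). Bnip3, a mitophagy receptor, was at 44.1 and 44.8 CPM in T567A and 22.9 and 24.7 CPM in T567D (log2 fold change 0.90 ± 0.084, adjusted p = 2.8e-08). Egln3 (chromosome 12, 54178981 to 54203860), a prolyl hydroxylase that marks HIF proteins for degradation, went the other way. It was at 1.86 and 2.17 CPM in T567A, 24.3 and 25.2 in T567D and 16 and 15 in wild type, the largest decrease among the named genes (log2 fold change -3.60 ± 0.15, adjusted p = 7.4e-14). The other hydroxylase genes of the family, named after their values were seen, differed less, with Egln2 at -0.43 ± 0.078 and Egln1 at -0.19 ± 0.066. Both calls were lost with the GC correction (-0.06, adjusted p = 0.49, and -0.03, adjusted p = 0.7). Vegfa, an angiogenic factor gene, was lower by -0.37 ± 0.082. The core letters ACGTG of the hypoxia element, which also form part of other elements, were in the promoters of 12 of 17 hypoxia genes (70.6%) and 9 of 19 glycolysis genes (47.4%), and in 25.1% of those of tested genes. Nuclear genes of oxidative phosphorylation were higher in 8 of 29 and lower in 2. The lower count was 1 without T567A replicate 2, 5 without T567A replicate 3 and 0 without T567D replicate 3.

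Mitochondrially encoded genes took 1.90% and 1.44% of counts in T567A and 1.01% and 1.24% in T567D. Of the 13 tested, 4 were called higher and none lower, or 2 with the GC correction, which moved the median from 0.60 to 0.31. The count was 1 without either T567D library, and 2 without T567A replicate 2 or without either wild-type library. mt-Co3 (chromosome M, 8607 to 9390), a cytochrome oxidase subunit, was at 2655 and 2337 CPM in T567A and 1657 and 1652 CPM in T567D (log2 fold change 0.59 ± 0.1, adjusted p = 0.0007, or 0.32 with the GC correction). The T567A libraries differed from each other more than the T567D libraries in this gene.

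Genes of the integrated stress response, in which ATF4 raises amino acid import and synthesis, were higher in 14 of 21 and lower in 2, with a median of 0.46, and in 18 and 0 with the GC correction. Without T567A replicate 3 or T567D replicate 3, 1 was lower. Atf4 (chromosome 15, 80255184 to 80257541) was at 549 and 596 CPM in T567A and 351 and 351 CPM in T567D (log2 fold change 0.71 ± 0.058, adjusted p = 4.0e-09). Slc7a11 (chromosome 3, 49892526 to 50443614), the cystine importer, was at 41.1 and 39.1 CPM in T567A and 13.9 and 11.5 CPM in T567D (log2 fold change 1.65 ± 0.11, adjusted p = 2.0e-10). Trib3, a pseudokinase target of ATF4, was at 59.2 and 66.1 CPM in T567A and 30.4 and 28.9 CPM in T567D (log2 fold change 1.08 ± 0.081, adjusted p = 8.7e-10). Chac1, a glutathione-degrading enzyme, was at 47.3 and 56 CPM in T567A and 30.3 and 34 CPM in T567D (log2 fold change 0.69 ± 0.11, adjusted p = 0.00015). The 2 lower members, named after their values were seen, were the transcription factor genes Cebpb at -0.60 ± 0.11 and Atf5 at -0.35 ± 0.099. Both calls were lost with the GC correction (-0.06, adjusted p = 0.63, and 0.00, adjusted p = 0.99).

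The unfolded protein response list was near the background, with 4 of 19 higher and 5 lower. These counts were 1 and 2 without T567D replicate 3, while 2 were lower without T567A replicate 2 and 3 without T567D replicate 1. Manf (chromosome 9, 106838312 to 106891979), a secreted ER-stress protein, was at 187 and 197 CPM in T567A and 296 and 296 CPM in T567D (log2 fold change -0.63 ± 0.06, adjusted p = 4.0e-08). NRF2 and antioxidant genes were also divided, with 5 of 24 higher and 6 lower, the higher count being 3 without T567A replicate 3 or without either T567D library. Among the lower members, Nqo1 (chromosome 8, 107388225 to 107403206), a quinone reductase, was at 70.4 and 75.4 CPM in T567A and 118 and 108 CPM in T567D (log2 fold change -0.63 ± 0.071, adjusted p = 4.2e-07). Txnrd1, thioredoxin reductase, was at 358 and 381 CPM in T567A and 484 and 458 CPM in T567D (log2 fold change -0.35 ± 0.059, adjusted p = 6.7e-05). Gclm, a subunit of the enzyme that starts glutathione synthesis, was at 131 and 128 CPM in T567A and 168 and 164 CPM in T567D (log2 fold change -0.36 ± 0.059, adjusted p = 4.0e-05, or -0.55 with the GC correction).

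Mitosis and cell cycle genes were lower in 13 of 30 and higher in 2 in T567A, with a median of -0.17, and in 19 and 2 with the GC correction. Cdc20 (chromosome 4, 118432901 to 118437352), an activator of the anaphase-promoting complex, was at 115 and 131 CPM in T567A and 185 and 184 CPM in T567D (log2 fold change -0.58 ± 0.069, adjusted p = 7.4e-07). Mybl2, a transcription factor of late cell cycle genes, was at 50.1 and 58.6 CPM in T567A and 85.9 and 85.4 CPM in T567D (log2 fold change -0.65 ± 0.079, adjusted p = 1.1e-06). Ccnb2, a mitotic cyclin, was at 69.2 and 84.3 CPM in T567A and 114 and 105 CPM in T567D (log2 fold change -0.50 ± 0.08, adjusted p = 3.4e-05). The 2 higher members were D-type cyclins, with Ccnd2 (chromosome 6, 127125162 to 127152193) at 228 and 207 CPM in T567A and 146 and 139 CPM in T567D (log2 fold change 0.61 ± 0.064, adjusted p = 1.7e-07). Ccnd1, named after its value was seen, differed by 0.15 ± 0.055 (adjusted p = 0.032). The higher count was 1 without T567A replicate 2, either T567D library, or any empty-vector or wild-type library. DNA replication genes were lower in 8 of 22 and higher in none, and in 12 with the GC correction. Tyms, thymidylate synthase, was at 105 and 106 CPM in T567A and 136 and 127 CPM in T567D (log2 fold change -0.31 ± 0.063, adjusted p = 0.00044). Cell cycle inhibitors and p53 targets were lower in 6 of 16 and higher in 4, the lower count being 3 without T567A replicate 2 and with the GC correction. Cdkn1a (chromosome 17, 29090976 to 29100727), the inhibitor p21, was at 277 and 294 CPM in T567A and 409 and 407 CPM in T567D (log2 fold change -0.52 ± 0.062, adjusted p = 8.8e-07). Fas, a death receptor, was at 39.3 and 32.9 CPM in T567A and 21.6 and 20.1 CPM in T567D (log2 fold change 0.79 ± 0.095, adjusted p = 1.1e-06). Labels give no growth rates, and cell numbers cannot be read from these counts.

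Genes of the actin cytoskeleton were mostly lower in T567A. Of 24 tested, 17 were lower and 2 higher, with a median of -0.32. Against wild type 14 were lower and 2 higher in T567A, and 3 were higher and none lower in T567D. Tagln2 (chromosome 1, 172500047 to 172507380), an actin-bundling protein, was at 87.1 and 73.7 CPM in T567A and 172 and 172 CPM in T567D (log2 fold change -1.10 ± 0.074, adjusted p = 1.4e-10). Flna (chromosome X, 74223461 to 74249820), which crosslinks actin filaments, was at 633 and 602 CPM in T567A and 1071 and 1073 CPM in T567D (log2 fold change -0.80 ± 0.062, adjusted p = 1.6e-09), and stood below wild type in T567A (-0.43 ± 0.062) and above it in T567D (0.37 ± 0.062). Acta2, smooth muscle actin, was at 35.8 and 39.1 CPM in T567A and 58.6 and 59.6 CPM in T567D (log2 fold change -0.66 ± 0.085, adjusted p = 2.6e-06). Fscn1 (chromosome 5, 142960343 to 142973185), fascin, which bundles filaments in filopodia, was higher, at 738 and 871 CPM in T567A and 517 and 526 CPM in T567D (log2 fold change 0.63 ± 0.072, adjusted p = 6.0e-07). The cytoplasmic actin genes, named after their values were seen, were lower by less, with Actb at -0.26 ± 0.055 and Actg1 at -0.25 ± 0.064.

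Srf encodes serum response factor, which activates actin genes through the CArG box, and its own promoter is shown because it holds the box.
Srf, chr17:46556163-46556412, minus strand: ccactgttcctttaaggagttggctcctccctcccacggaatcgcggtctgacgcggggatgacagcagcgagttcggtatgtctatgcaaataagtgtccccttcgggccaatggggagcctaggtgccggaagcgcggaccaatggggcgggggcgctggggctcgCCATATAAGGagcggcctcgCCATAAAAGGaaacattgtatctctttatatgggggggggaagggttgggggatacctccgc
The 250 bases before the gene start, from RefSeq on GRCm38.p6, held 2 boxes in capitals, beginning at -82 and -62. Srf (chromosome 17, 46548329 to 46556175) was at 37.5 and 37.8 CPM in T567A and 61.3 and 66.3 CPM in T567D (log2 fold change -0.76 ± 0.072, adjusted p = 3.2e-08, or -0.31 with the GC correction). The box was in 4 of 22 actin list promoters (18.2%), those of Actg1, Cnn2, Vcl and Srf, and in 1.37% of promoters of tested genes. The searched box was C, C, 6 bases of A or T, then G, G. Of these 4 genes Vcl was not called.

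Output genes of the MAPK pathway and immediate-early genes were lower in 16 of 28 and higher in 2, with a median of -0.35. In T567D none was called against wild type, where 1.34% of all tested genes were called. In T567A 15 were lower and 2 higher. Dusp4 (chromosome 8, 34807297 to 34819894), a phosphatase induced by ERK, was at 3.45 and 3.45 CPM in T567A and 8.43 and 8.01 CPM in T567D (log2 fold change -1.25 ± 0.16, adjusted p = 1.6e-06). Etv4 and Etv5, ETS factors downstream of ERK, were lower, Etv4 at 5.11 and 5.62 CPM in T567A and 10.6 and 10.8 CPM in T567D (log2 fold change -0.98 ± 0.14, adjusted p = 7.6e-06). Etv5 was at 16.2 and 16 CPM in T567A and 28.6 and 28.9 CPM in T567D (log2 fold change -0.84 ± 0.089, adjusted p = 1.7e-07). Ier2, an immediate-early gene, was at 7.11 and 7.57 CPM in T567A and 14.2 and 16.5 CPM in T567D (log2 fold change -1.06 ± 0.14, adjusted p = 3.5e-06). Fosb, a low-level AP-1 subunit, was at 0.414 and 0.835 CPM in T567A and 1.62 and 2.45 CPM in T567D (log2 fold change -1.65 ± 0.37, adjusted p = 0.0011). The groups did not overlap in these genes.

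Matrix glycoproteins were lower in 11 of 22 tested genes and higher in 4, with a median of -0.42. Fn1 (chromosome 1, 71585520 to 71653200), fibronectin, was at 49.9 and 51.4 CPM in T567A, 263 and 268 in T567D and 173 and 162 in wild type. T567A was below and T567D above wild type (log2 fold change -2.39 ± 0.098, adjusted p = 1.2e-11 between the mutants, -1.73 ± 0.098 and 0.66 ± 0.089 against wild type). Tnc (chromosome 4, 63959785 to 64047015), tenascin-C, was at 9.46 and 7.68 CPM in T567A and 27.8 and 35.2 CPM in T567D (log2 fold change -1.89 ± 0.13, adjusted p = 1.6e-09). Fbln5, fibulin-5 of elastic fibres, was at 2.28 and 2.5 CPM in T567A and 5.83 and 6.37 CPM in T567D (log2 fold change -1.34 ± 0.19, adjusted p = 7.3e-06). A pair of thrombospondins were higher, of which Thbs1 (chromosome 2, 118111876 to 118127133), an abundant secreted adhesion protein, was at 1596 and 1639 CPM in T567A and 721 and 767 CPM in T567D (log2 fold change 1.12 ± 0.063, adjusted p = 8.6e-12). Thbs3 was at 20.0 and 17.8 CPM in T567A and 7.05 and 8.12 CPM in T567D (log2 fold change 1.31 ± 0.12, adjusted p = 2.2e-08).

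Collagens were lower in 10 of 19 tested genes and higher in 2, with a median of -0.66, which was -0.34 with the GC correction (9 lower and 1 higher). The higher count was 1 without T567A replicate 2, T567D replicate 3 or any empty-vector or wild-type library. The type V chain gene Col5a1 (chromosome 2, 27886425 to 28039514) was at 104 and 99.7 CPM in T567A and 206 and 245 CPM in T567D (log2 fold change -1.15 ± 0.075, adjusted p = 1.0e-10). Col6a2, a type VI chain, was at 2.76 and 3.12 CPM in T567A and 10.9 and 9.99 CPM in T567D (log2 fold change -1.82 ± 0.15, adjusted p = 4.5e-09). Col7a1, of anchoring fibrils, had the largest change of the list and was at 2.28 and 1.22 CPM in T567A and 6.93 and 11.6 CPM in T567D (log2 fold change -2.44 ± 0.3, adjusted p = 2.2e-05). Col18a1 (chromosome 10, 77052178 to 77166548), a basement membrane collagen, was at 618 and 655 CPM in T567A and 1068 and 1199 CPM in T567D (log2 fold change -0.83 ± 0.066, adjusted p = 2.1e-09, or -0.51 with the GC correction). Of the main bone collagen genes, named after their values were seen, Col1a1 was at -0.28 ± 0.068 (adjusted p = 0.002), a call lost with the GC correction (-0.02, adjusted p = 0.79). In contrast, Col1a2, at -0.02 ± 0.055, did not pass the test (adjusted p = 0.75).

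Small leucine-rich proteoglycans, which bind collagen fibrils, went both ways, with 2 of 6 higher and 3 lower. Ogn (chromosome 13, 49608046 to 49624501), osteoglycin, was at 542 and 514 CPM in T567A and 117 and 129 CPM in T567D (log2 fold change 2.10 ± 0.068, adjusted p = 1.8e-15), and its neighbour Omd, osteomodulin, at 39.6 and 36.9 CPM in T567A and 10.7 and 10.6 CPM in T567D (log2 fold change 1.84 ± 0.098, adjusted p = 3.6e-12). Dcn, decorin (chromosome 10, 97479609 to 97518143), had 3 and 3 reads in T567A and 41 and 23 reads in T567D. The ratio of reads per total was 10.4 in favour of T567D, with a 95% exact counting interval of 4.51 to 29.3. Bgn (chromosome X, 73483602 to 73495933), biglycan, was at 629 and 715 CPM in T567A and 985 and 1125 CPM in T567D (log2 fold change -0.65 ± 0.068, adjusted p = 1.6e-07). Prelp was at 11.9 and 14.5 CPM in T567A and 27.1 and 29.1 CPM in T567D (log2 fold change -1.08 ± 0.1, adjusted p = 2.5e-08), and there the difference from wild type was in T567D (0.86 ± 0.097, adjusted p = 2.8e-05) and not called in T567A (-0.22 ± 0.11, adjusted p = 0.11).

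Of 8 lysyl oxidases and hydroxylases, which crosslink collagen, 2 were higher and 2 lower. The higher count was 1 without T567A replicate 2 or either T567D library, and the lower count 4 without T567A replicate 3. Loxl4 (chromosome 19, 42593982 to 42612813) was at 415 and 467 CPM in T567A and 207 and 196 CPM in T567D (log2 fold change 1.13 ± 0.064, adjusted p = 9.4e-12). Lox itself was lower, at 125 and 101 CPM in T567A and 177 and 184 CPM in T567D (log2 fold change -0.68 ± 0.082, adjusted p = 1.7e-06). Of 23 matrix proteases and inhibitors, 5 were higher and 11 lower, or 7 lower without T567A replicate 2. Genes of 2 secreted proteases that cut proteoglycans were higher, of which Adamts1 (chromosome 16, 85793827 to 85803113) was at 136 and 122 CPM in T567A and 36.5 and 34.8 CPM in T567D (log2 fold change 1.85 ± 0.078, adjusted p = 1.1e-13). Its neighbour Adamts5 was at 148 and 135 CPM in T567A and 48.1 and 46.6 CPM in T567D (log2 fold change 1.58 ± 0.089, adjusted p = 3.7e-11). Adamts2 (chromosome 11, 50602084 to 50807573), which processes procollagens, was lower, at 2.69 and 2.23 CPM in T567A and 6.93 and 6.25 CPM in T567D (log2 fold change -1.43 ± 0.18, adjusted p = 1.3e-06). Mmp19, a matrix metalloproteinase, was at 3.52 and 2.56 CPM in T567A and 7.05 and 7.19 CPM in T567D (log2 fold change -1.24 ± 0.19, adjusted p = 1.6e-05).

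Integrins, the receptors for these matrix proteins, had 4 of 14 members higher and 5 lower, with 3 lower without T567A replicate 2 or T567D replicate 3. Itga3 (chromosome 11, 95044474 to 95076801), a laminin receptor subunit, was at 938 and 1023 CPM in T567A and 512 and 516 CPM in T567D (log2 fold change 0.93 ± 0.059, adjusted p = 6.0e-11). Itga11, a collagen receptor subunit, was at 13.7 and 15.7 CPM in T567A and 5.49 and 6.72 CPM in T567D (log2 fold change 1.27 ± 0.14, adjusted p = 2.0e-07). Parental cells held far more Itga11, at 62.7 and 60.7 CPM, and empty-vector cells held 2.03 and 1.27. Itgb5, a subunit of vitronectin receptors, was at 124 and 145 CPM in T567A and 231 and 242 CPM in T567D (log2 fold change -0.81 ± 0.072, adjusted p = 1.3e-08). Cadherins and protocadherins were lower in 6 of 13 and higher in 2, or 1 higher without T567D replicate 3. Pcdh1, a protocadherin gene, was at 3.18 and 2.67 CPM in T567A and 10.1 and 12.2 CPM in T567D (log2 fold change -1.93 ± 0.16, adjusted p = 6.1e-09). The atypical cadherin gene Fat1 was at 315 and 269 CPM in T567A and 507 and 473 CPM in T567D (log2 fold change -0.75 ± 0.11, adjusted p = 0.00015). Ncam1 (chromosome 9, 49502136 to 49798925), the neural cell adhesion molecule, was at 12.2 and 13.9 CPM in T567A and 49.2 and 56.3 CPM in T567D (log2 fold change -2.01 ± 0.097, adjusted p = 8.5e-13).

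Semaphorins, ephrins and other guidance genes were lower in 12 of 23 and higher in 4, with a median of -0.21. Ntn4 (chromosome 10, 93640681 to 93747207), netrin-4, was at 9.32 and 11.3 CPM in T567A and 29.1 and 28.4 CPM in T567D (log2 fold change -1.47 ± 0.11, adjusted p = 1.5e-09). Its receptor family member Unc5b was at 125 and 135 CPM in T567A and 282 and 292 CPM in T567D (log2 fold change -1.14 ± 0.064, adjusted p = 7.2e-12). Sema7a, a membrane-anchored semaphorin, was at 6.56 and 7.4 CPM in T567A and 17 and 24.8 CPM in T567D (log2 fold change -1.57 ± 0.21, adjusted p = 0.00013). Ephb2, an ephrin receptor, was at 34.6 and 38.1 CPM in T567A and 64.5 and 66.4 CPM in T567D (log2 fold change -0.85 ± 0.079, adjusted p = 2.8e-08). Notch and Hedgehog genes were lower in 7 of 13 and higher in 1. Notch2 (chromosome 3, 98013527 to 98150361) was at 86.6 and 83.4 CPM in T567A and 146 and 143 CPM in T567D (log2 fold change -0.76 ± 0.069, adjusted p = 1.4e-08), while the ligand gene Jag1 was higher, at 22.8 and 23.3 CPM in T567A and 13.3 and 13.7 CPM in T567D (log2 fold change 0.77 ± 0.11, adjusted p = 1.5e-05).

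Osteoblast differentiation genes had 4 of 12 tested members higher and 4 lower. Alpl (chromosome 4, 137741733 to 137796384), the alkaline phosphatase needed for mineral deposition, was at 2.21 and 3.4 CPM in T567A and 13.9 and 11.9 CPM in T567D (log2 fold change -2.18 ± 0.18, adjusted p = 3.1e-09). Ank, a pyrophosphate exporter, was at 58.3 and 59.7 CPM in T567A and 99.2 and 103 CPM in T567D (log2 fold change -0.77 ± 0.066, adjusted p = 6.6e-09). Phex, an endopeptidase of bone cells, was higher, at 16.9 and 14.2 CPM in T567A and 7.45 and 5.55 CPM in T567D (log2 fold change 1.25 ± 0.16, adjusted p = 4.4e-06). Runx2, the lineage transcription factor, named after its value was seen, was at 42.6 and 35.5 CPM in T567A and 38.6 and 38.2 CPM in T567D, a difference that did not pass the test (0.02 ± 0.086, adjusted p = 0.88).

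TGF-beta and BMP signalling had 9 of 27 members higher and 10 lower. Bmp2 (chromosome 2, 133552159 to 133562885), a bone-inducing ligand, was at 50.7 and 44.5 CPM in T567A and 20.0 and 18.4 CPM in T567D (log2 fold change 1.31 ± 0.095, adjusted p = 4.9e-10). Ltbp3 (chromosome 19, 5740904 to 5758532), which holds latent TGF-beta in the matrix, was at 110.3 and 119 CPM in T567A and 275 and 283 CPM in T567D (log2 fold change -1.28 ± 0.063, adjusted p = 1.1e-12). The inhibitory SMAD genes induced by these ligands were lower, of which Smad7 was at 29.8 and 27.2 CPM in T567A and 59.2 and 52.2 CPM in T567D (log2 fold change -0.97 ± 0.091, adjusted p = 2.8e-08). Smad6 was at 16.6 and 18.8 CPM in T567A and 32.9 and 29.5 CPM in T567D (log2 fold change -0.81 ± 0.095, adjusted p = 6.3e-07, or -0.50 with the GC correction). Pmepa1 (chromosome 2, 173224458 to 173276533), another feedback inhibitor induced by TGF-beta, was at 5.45 and 5.73 CPM in T567A and 38.1 and 54.9 CPM in T567D (log2 fold change -3.05 ± 0.2, adjusted p = 5.4e-07).

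CCN genes and YAP targets were higher in 9 of 15 and lower in 2. Ankrd1 (chromosome 19, 36111961 to 36120099) was at 771 and 718 CPM in T567A and 540.0 and 537 CPM in T567D (log2 fold change 0.47 ± 0.058, adjusted p = 1.6e-06). Ccn3, a matricellular protein, was at 57.6 and 63.9 CPM in T567A and 39.1 and 33.5 CPM in T567D (log2 fold change 0.74 ± 0.085, adjusted p = 5.1e-07). Ccn2 (chromosome 10, 24595442 to 24598683), connective tissue growth factor, went the other way, at 107 and 118 CPM in T567A and 199 and 220.0 CPM in T567D (log2 fold change -0.89 ± 0.083, adjusted p = 7.9e-08). The insulin-like growth factor axis had 2 of 10 higher and 4 lower. Igf1 was scarce, at 0.414 and 0.278 CPM in T567A and 1.39 and 1.69 CPM in T567D (log2 fold change -2.16 ± 0.43, adjusted p = 0.00034). Igf1r (chromosome 7, 67952827 to 68233668), its receptor, was at 63.2 and 54.7 CPM in T567A and 83.2 and 78.7 CPM in T567D (log2 fold change -0.46 ± 0.079, adjusted p = 7.5e-05). Of 11 Wnt genes 2 were higher and 4 lower, the lower count being 1 without T567A replicate 2, 2 without T567D replicate 3 and 2 with the GC correction. Wnt5a (chromosome 14, 28504750 to 28527448), a non-canonical ligand, was at 57.5 and 51.9 CPM in T567A and 18.8 and 18.9 CPM in T567D (log2 fold change 1.53 ± 0.089, adjusted p = 1.4e-11), and the Wnt receptor gene Fzd7 at 25.1 and 25.8 CPM in T567A and 39.3 and 34.7 CPM in T567D (log2 fold change -0.54 ± 0.088, adjusted p = 4.4e-05).

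The study's title concerns ezrin as an RNA-binding protein, so genes of RNA metabolism were counted too. In the main fit 20.7% to 33.3% of a group were higher, the most in translation factors, against 22.5% of all tested genes. Shares lower were 17.2% to 28.1%, against 21.6%. With the GC correction, which called 2616 of 12595 genes in each direction, some groups moved away from these shares. DEAD-box and DEAH-box helicases were higher in 6 of 29 and lower in 5, or 2 and 1 without T567D replicate 3, and 3 lower with the GC correction. Other RNA-binding proteins were higher in 9 of 39 and lower in 7, but in 3 and 9 with the GC correction. Their counts were 5 and 3 without T567D replicate 3, and the lower count was 4 without T567A replicate 2 or T567D replicate 1. Translation factors were higher in 10 of 30 and lower in 6, or 9 and 3 with the GC correction, and 3 were lower without T567A replicate 2 or T567D replicate 3. Cytosolic ribosomal protein genes were higher in 8 of 32 and lower in 9, or 10 and 5 with the GC correction. Without T567D replicate 3 they were 4 and 5, and the lower count was 4 without T567A replicate 2 and 3 without T567D replicate 1. Msi2 (chromosome 11, 88339382 to 88718513), a translational regulator, was at 110.3 and 85.2 CPM in T567A and 60.2 and 56.5 CPM in T567D (log2 fold change 0.74 ± 0.091, adjusted p = 2.8e-06). Eif3c, a subunit of the initiation factor eIF3, was at 752 and 749 CPM in T567A and 579.6 and 559 CPM in T567D (log2 fold change 0.40 ± 0.055, adjusted p = 5.9e-06). Rpl19, a protein of the large ribosomal subunit, was at 1288 and 1202 CPM in T567A and 889 and 873 CPM in T567D (log2 fold change 0.50 ± 0.061, adjusted p = 1.3e-06), and Rpl15, of the same subunit, at 556 and 593 CPM in T567A and 741 and 755 CPM in T567D (log2 fold change -0.38 ± 0.06, adjusted p = 2.9e-05). Ribosomal protein genes have many processed copies, so these counts are uncertain.

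Several of the largest differences lay outside these groups. Megf6 (chromosome 4, 154170730 to 154275713), which encodes a protein with EGF-like repeats, was at 19.5 and 20.1 CPM in T567A and 3.06 and 3.33 in T567D, with 3.14 and 3.14 in wild type (log2 fold change 2.63 ± 0.14, adjusted p = 2.3e-12). Parental cells held more Megf6 than T567A, at 39.3 and 37.7 CPM, and empty-vector cells held 0.339 and 0.694. Hap1 (chromosome 11, 100347327 to 100356128), the huntingtin-associated protein, was at 37.3 and 35.2 CPM in T567A and 6.18 and 6.78 CPM in T567D (log2 fold change 2.48 ± 0.11, adjusted p = 3.8e-13). Its level was 18.7 and 18.1 CPM in parental cells and 3.45 and 4.57 in empty-vector cells. Scara5 (chromosome 14, 65666403 to 65764826), a ferritin receptor, was at 112 and 109 CPM in T567A and 28.2 and 28.8 CPM in T567D (log2 fold change 1.95 ± 0.071, adjusted p = 9.6e-15). Sp110, a nuclear body protein induced by interferon, was at 51 and 51.7 CPM in T567A and 11.2 and 14.4 CPM in T567D (log2 fold change 2.01 ± 0.11, adjusted p = 3.0e-12). Slfn8 was at 90.6 and 75.1 CPM in T567A and 22.2 and 19.9 CPM in T567D (log2 fold change 1.97 ± 0.093, adjusted p = 5.6e-13), Trim30d at 38.1 and 36.7 CPM in T567A and 9.88 and 10.1 CPM in T567D (log2 fold change 1.90 ± 0.1, adjusted p = 3.0e-12), and Mpeg1, perforin-2, at 10.5 and 10.9 CPM in T567A and 2.66 and 3.1 CPM in T567D (log2 fold change 1.89 ± 0.16, adjusted p = 5.8e-09).

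Among the decreases, Soga1 (chromosome 2, 157015799 to 157079254) was at 1.66 and 2 CPM in T567A and 10.5 and 11.1 CPM in T567D (log2 fold change -2.54 ± 0.17, adjusted p = 1.7e-10). Acsbg1 (chromosome 9, 54604877 to 54661870), an acyl-CoA synthetase, was at 2.14 and 2.89 CPM in T567A and 13.3 and 14.6 CPM in T567D (log2 fold change -2.45 ± 0.16, adjusted p = 1.3e-10). Hip1r (chromosome 5, 123973628 to 124005558), which links endocytic coats to actin, was at 2.97 and 3.4 CPM in T567A and 15.3 and 15.4 CPM in T567D (log2 fold change -2.26 ± 0.17, adjusted p = 9.3e-10). Myo7a, an unconventional myosin, was at 2.07 and 1.84 CPM in T567A and 8.95 and 11.2 CPM in T567D (log2 fold change -2.37 ± 0.24, adjusted p = 3.0e-07). Syt7 (chromosome 19, 10389090 to 10453180), a calcium sensor of exocytosis, was at 2.21 and 2.73 CPM in T567A and 14.3 and 11.2 CPM in T567D (log2 fold change -2.35 ± 0.17, adjusted p = 4.1e-10). The muscle-type genes Hspb7 and Mustn1 were lower too, with Hspb7 (chromosome 4, 141420779 to 141425311), a small heat shock protein gene, at 11.9 and 13 CPM in T567A and 54.7 and 62.7 CPM in T567D (log2 fold change -2.23 ± 0.093, adjusted p = 8.3e-14). Mustn1 was at 2.49 and 3.67 CPM in T567A and 10.8 and 12.6 CPM in T567D (log2 fold change -1.90 ± 0.18, adjusted p = 2.7e-08). Fabp4, a fatty acid carrier of adipocytes, was at 1.31 and 0.612 CPM in T567A and 7.74 and 6.19 CPM in T567D (log2 fold change -2.90 ± 0.26, adjusted p = 1.2e-08).

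Set against wild-type ezrin cells, the T567A line held most of the departures. It also held most of the trend with base composition. From the group of lowest to that of highest GC content, the median against wild type ran from 0.20 to -0.22 in T567A. In T567D it ran from -0.01 to 0.02. The part of this trend in the counts of calls was not tested. Cxcl10 was 2.15 ± 0.064 in T567A and -0.18 ± 0.066 in T567D, the latter not passing the test (adjusted p = 0.25). Scd2 was 1.73 ± 0.069 and 0.24 ± 0.069 (adjusted p = 0.092 in T567D). Tnc was -1.80 ± 0.14 and 0.09 ± 0.11 (adjusted p = 0.84 in T567D). Other genes departed in opposite directions in the 2 mutant lines, each passing the test. Of the largest decreases, Pmepa1, Soga1, Fn1, Myo7a, Syt7 and Hspb7 stood below wild type in T567A and above it in T567D. The same held for Msn, Flna, Acta2 and Manf, and Hap1 departed the other way. Most of these genes were chosen by the size of T567A minus T567D. That choice favours departures in opposite directions, so the pattern follows in part from it. Acsbg1, Hip1r, Alpl, Pcdh1, Mustn1 and Tnc, also among the largest decreases, were not called between T567D and wild type. Values of 3 further genes follow. Egln3 was -2.93 ± 0.16 in T567A and 0.68 ± 0.1 in T567D (adjusted p = 0.00087). Ncam1 was -1.52 ± 0.1 and 0.49 ± 0.084 (adjusted p = 0.0029 in T567D). Bgn was -0.32 ± 0.068 and 0.33 ± 0.068 (adjusted p = 0.015 in T567D). The difference between T567A and T567D in such genes is the sum of both departures.

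**Figure D5:**
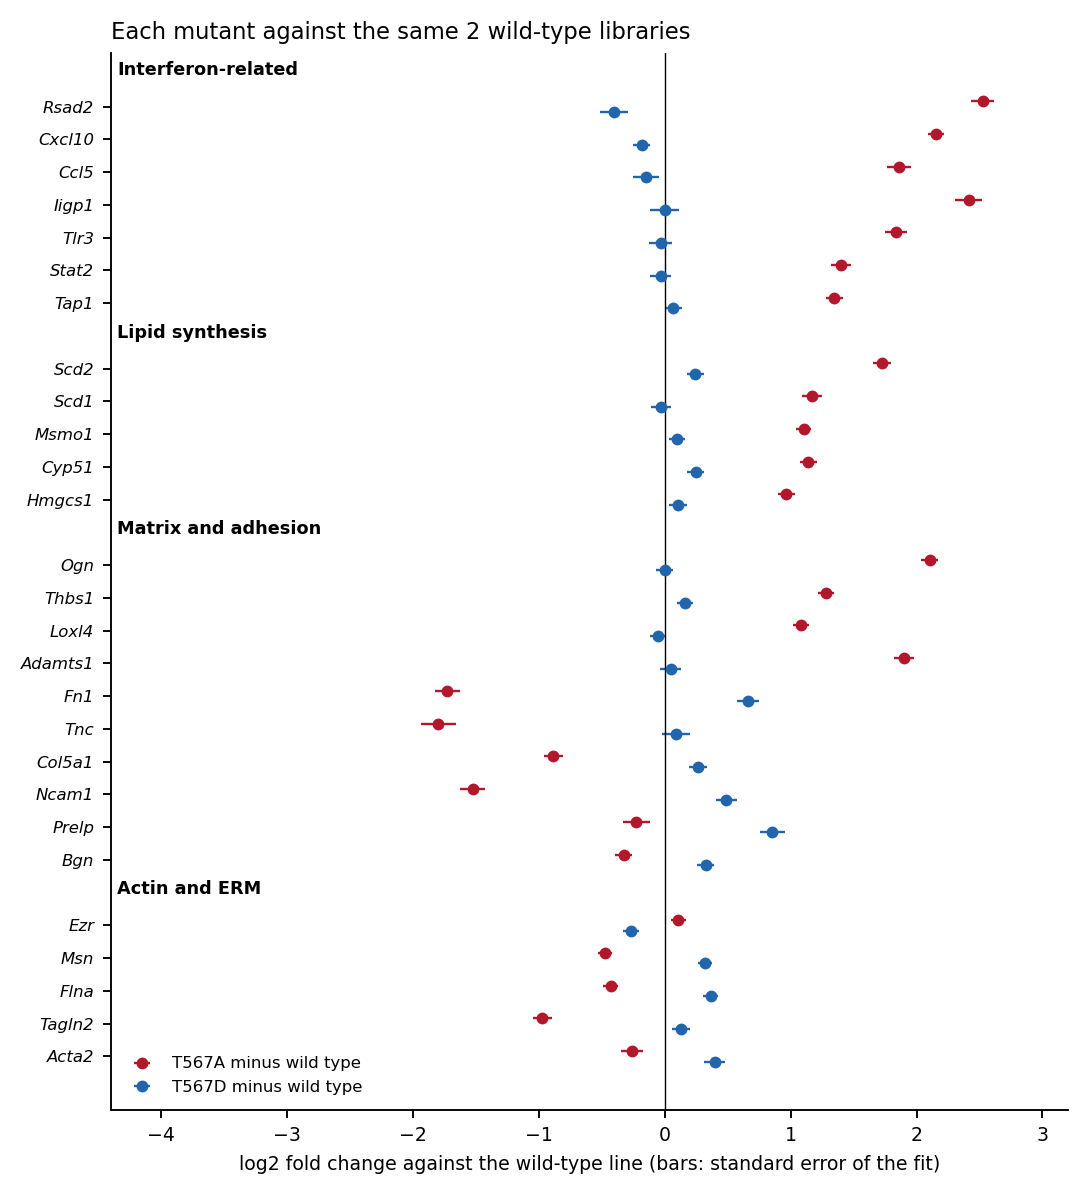
Log2 fold changes against the wild-type ezrin line (x axis, bars are standard errors of the fit) are plotted for T567A (red) and T567D (blue) for named genes (y axis) in 4 groups. Both comparisons use the same 2 wild-type libraries; T567A reaches 2.53 for Rsad2 and -1.80 for Tnc, where T567D lies at -0.40 and 0.09.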

How the data were processed

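Poly-A RNA was sequenced from 10 libraries of 5 K7M2 lines. The authors deposited whole-number counts per gene name and RPKM, per the file headers and the values. The build was GRCm38 (per the submitters' processing notes). How reads were aligned and counted, with which annotation and strand setting, is not given in the sources used here. Tests used edgeR 4.0.16 under R 4.3.3 on these counts (filterByExpr with a minimum count of 10 and a minimum total of 15, TMM scaling, robust quasi-likelihood test, 5 line means over all 10 libraries, 5 residual degrees of freedom). Genes were called at a Benjamini-Hochberg adjusted p under 0.05 over all tested genes, two-sided, and errors beside log2 fold changes are standard errors of the fit. Deposited RPKM served for levels between genes and for limma 3.58.1 as an alternative. A count of 3, the floor of detection for counting error only, equals 0.165 to 0.204 CPM in the 4 libraries. Replicates of each line differed by more than sampling noise. The chi-square per degree of freedom was 8.45 between the T567A libraries, 4.35 between the T567D libraries and 2.44 to 4.19 in the other lines. The fit pools the spread of all 5 lines, and a fit of the 4 T567A and T567D libraries alone called 4617 genes. Genes were named by rule, first Ezr, Msn and Rdx themselves. Then came the 14 largest changes in each direction at 10 CPM or more, without overlap between the libraries of both lines. Up to 5 called members of each of 46 lists at 1 CPM or more were added. The comparison, the lists and this rule were chosen with earlier results of these data known, and genes named outside the rule were chosen after their values were seen. GC content was taken from annotated transcripts for 12428 tested genes (98.7%). The alternatives were other scalings, filters, thresholds and tools (DESeq2 1.42.0 among them), a replicate block, leaving out each library and a GC correction (loess offset per library, span 0.5). The scripts were tested on simulated data. Some genes of these lists are not reported here by name.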

Additional observations from a re-analysis of the deposited data

How the results depend on the processing

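The number of genes called, 5558, lay between 3875 and 5550 under other scalings, filters, tools and a threshold of 0.01, and the share of calls that were higher in T567A lay between 44.5% and 52.5% over all alternatives. A test against a 1.5-fold change called 643 genes, 335 higher and 308 lower, of which 494 changed over 2-fold, and Ezr (0.38) was lost in it (adjusted p = 1). Over 2-fold calls fell from 779 to 359 with a filter of 5 CPM in 2 libraries. With limma they were 182 on log2(RPKM + 1) and 553 on log2(RPKM + 0.1), so this count depends on the constant added. DESeq2 called 4100 genes. The cause of these shifts was not tested, except that a higher filter tests fewer genes (10242). Leaving out 1 library gave 4004 to 5474 calls, 1942 to 2822 higher, 2062 to 2691 lower, 670 to 795 over 2-fold and 0.29 to 0.46 for Ezr, the fewest without T567D replicate 3, and 28 of 217 called named genes lost their call without some library, none with a change of direction. T567A and T567D share only replicate number 3 in the labels, and deviations of those libraries correlated at 0.06 across genes. With 1 shared number this cannot decide whether libraries of the same number were handled together. The main fit has no block. A fit with the replicate block called 3849 genes, 1941 higher and 1908 lower, and 14 named genes lost their call. The GC correction, chosen after seeing the data, called 5232 genes, made 1 call of a named gene, ended 15 with their direction kept, and ended that of Bax, which moved from -0.41 to 0.0067 (adjusted p = 0.94). It raised the calls of T567D against wild type from 169 to 340 and lowered those of T567A against wild type from 4983 to 4646. A gene without counts in a library could lie at up to 3 counts, 0.165 to 0.204 CPM.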

Other observations

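Median differences between T567A and T567D varied by chromosome. After the GC correction the median log2 fold change was 0.10 over 1002 tested genes of chromosome 11 and 0.09 over 385 of chromosome 16, and -0.12 over 373 of chromosome X, -0.11 over 479 of chromosome 13 and -0.10 over 681 of chromosome 9. On chromosome 16, 35.6% of genes were called higher and 13.8% lower without the correction. These chromosomes were picked after their values were seen, and copy number was not measured here.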
